A study of Mus musculus with 13 samples.

Results

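Malat1, Neat1 and 4 snoRNA host transcripts (Gas5, Snhg1, Snhg3 and Snhg6) were followed as 6 of the 24328 genes in the count files, each matched by its gene name. The set was chosen by measured values: levels of Malat1 and Neat1 at 0 h and 72 h in these data were known beforehand, so for these 6 genes every value against those times is given as a description without a test. Other genes, from lists also chosen with earlier results known, were tested against 0 h. RNA was sequenced from mouse bone marrow cells in 13 libraries. There was 1 library each of wild-type granulocyte-monocyte progenitors (GMP), of leukemia stem cells (LSC) and of mature AML cells (mAML), the last 2 from a murine leukemia driven by MLL-AF10, so no difference among the 3 has a replicate check. A time course followed LSC in A-485, which blocks the acetyltransferases p300 and CBP, with 2 libraries at each of 0, 8, 24, 48 and 72 h. The leukemia cells were cultured in RPMI with fetal bovine serum and WEHI-conditioned medium. Cells at 0 h were untreated, no vehicle control accompanied the later times, and the labels used here state no dose. Nothing states that the libraries of a time came from separate cultures, so p-values measure only the spread between these libraries, which may be technical.

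Malat1 and Neat1 are long noncoding RNAs that stay in the nucleus. Malat1 gathers at nuclear speckles, which hold splicing factors, and Neat1 is the scaffold on which paraspeckles form. Gas5 and the Snhg genes carry small nucleolar RNAs (snoRNAs) in their introns. The snoRNAs are cut from the spliced-out introns and guide the chemical modification of ribosomal RNA, while the spliced host RNA is often removed by nonsense-mediated decay, a pathway that acts on translated RNA. Many snoRNA hosts, like the genes of ribosomal proteins, start transcription at a C followed by a run of C and T, the terminal oligopyrimidine or TOP start.

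The starts of the host genes are shown because a TOP start is the sequence feature they are known to share with ribosomal protein genes. RefSeq promoter windows (build GRCm38.p6, 250 bases before to 50 after the start) matched 4 of the 6 genes. Gas5 had 2 windows, of which the second is shown. The RefSeq start of the Gas5 gene is in the window not shown, and the window shown lies inside the gene. Capitals mark GGGCGG on either strand, TGACGTCA and CCAAT, read 5′ to 3′ on the gene's strand. The windows were Malat1 at chr19:5802623-5802922 (minus strand), Gas5 at chr1:161034916-161035215 (plus), Snhg1 at chr19:8723237-8723536 (plus) and Snhg3 at chr4:132353637-132353936 (minus).
Malat1: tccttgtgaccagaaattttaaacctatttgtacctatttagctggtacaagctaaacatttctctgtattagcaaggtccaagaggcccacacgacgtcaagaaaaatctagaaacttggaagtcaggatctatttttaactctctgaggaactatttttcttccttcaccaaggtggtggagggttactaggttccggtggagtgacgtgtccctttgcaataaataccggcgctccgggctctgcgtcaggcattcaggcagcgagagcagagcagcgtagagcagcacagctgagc
Gas5: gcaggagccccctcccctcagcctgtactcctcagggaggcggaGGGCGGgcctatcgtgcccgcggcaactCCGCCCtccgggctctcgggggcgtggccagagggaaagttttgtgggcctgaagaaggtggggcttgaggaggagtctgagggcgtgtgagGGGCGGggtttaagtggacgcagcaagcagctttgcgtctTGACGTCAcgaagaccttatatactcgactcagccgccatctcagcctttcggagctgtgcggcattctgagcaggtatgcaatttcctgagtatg
Snhg1: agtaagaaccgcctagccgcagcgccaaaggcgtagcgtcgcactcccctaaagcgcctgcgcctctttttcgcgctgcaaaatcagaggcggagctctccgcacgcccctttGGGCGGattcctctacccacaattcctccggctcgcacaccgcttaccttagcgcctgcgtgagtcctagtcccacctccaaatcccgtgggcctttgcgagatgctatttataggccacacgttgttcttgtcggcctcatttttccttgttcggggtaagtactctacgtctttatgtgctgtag
Snhg3: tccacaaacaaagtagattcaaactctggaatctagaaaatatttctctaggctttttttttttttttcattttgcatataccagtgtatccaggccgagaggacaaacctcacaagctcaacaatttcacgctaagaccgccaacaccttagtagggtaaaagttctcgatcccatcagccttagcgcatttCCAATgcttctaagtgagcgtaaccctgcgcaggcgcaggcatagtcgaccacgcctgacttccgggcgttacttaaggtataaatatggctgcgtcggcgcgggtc
At the start, the annotated start base and the base before it belonged to a run of 6 C or T bases in the Gas5 window and of 4 in the Snhg1 window, while Malat1 had a run of 2 and Snhg3 started with G. The Gas5 window not shown, that of the RefSeq gene start, started with G, had no such run and held 5 GGGCGG and none of the other motifs. A run of at least 5 at the start was present in 10.1% of 32851 windows. The Gas5 window held TGACGTCA 46 bases before the start, a motif in 1.79% of windows, and 3 GGGCGG, a motif in 35.7%. Snhg1 held 1 GGGCGG, and Snhg3 held CCAAT 57 bases before the start, a motif in 37.4% of windows. CACGTG was in none of the 4, and in 7.15% of all windows, with both strands searched for each motif. These matches describe the letters in the windows only.

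The libraries held 24532508 (GMP), 40468515 (LSC) and 47257642 (mAML) counts, and 6467764 to 9763276 in the time course. The single libraries were checked against markers. Kit, the stem cell factor receptor, was at 365 CPM (counts scaled to library size) in GMP and 328 in LSC but 2.18 in mAML. The mAML library alone had all 10 T and NK cell genes above 0, with 264 counts of Cd3e against 0 in GMP and LSC. By their sum these 10 genes were highest in GMP, at 429 CPM, against 127 in mAML and 70.7 in LSC. In GMP 1 of them was at 1 CPM or more. The 7 erythroid genes summed to 1022 CPM in mAML against 2.79 in LSC and 75.6 in GMP. The part of these other cells in the mAML values was not tested. In the time course 9 GMP and primary granule genes summed to 7987 or more CPM in each 0 h library and to 592 and 676 in those of 72 h, while Cd3e was at 0 in both libraries of 72 h. In bulk samples, fewer cells of a type and less RNA per cell cannot be told apart.

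Per unit of transcript length, Malat1 was lowest in GMP and highest after 72 h of A-485. Its level was 10.4 TPM (abundance scaled within a library for transcript length and depth) in GMP, 24.6 in LSC and 28.3 in mAML. The libraries of 0 h had 53.3 and 54.4 TPM, those of 8 h 141 and 111, those of 24 h 388 and 267, those of 48 h 469 and 586, and those of 72 h 745 and 819. No 2 neighbouring times overlapped, so the order from 0 h to 72 h was the order of time. The order was the same by library-size CPM and by CPM with trimmed mean scaling (TMM) over the 13 libraries. The single libraries and the time course may be separate experiments, and they differ in depth. The length left to reads after the fragment size is taken off was 6814 to 6833 nt in the first and 6697 to 6734 nt in the second. LSC had 24.6 TPM in the single library but 53.3 and 54.4 when untreated at 0 h. Differences of condition and of set therefore cannot be told apart between them.

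Neat1 had the same order of conditions, with a wider spread between libraries. It stood at 8.80 TPM (GMP), 11.4 (LSC) and 14 (mAML). At 0 h it was at 43.8 and 47.1 TPM, against 11.4 in the single LSC library, again a step between the sets. At 8 h it was at 145 and 95.2 TPM, at 24 h at 288 and 153, at 48 h at 480 and 645, and at 72 h at 536 and 1327. The 72 h and 48 h pairs partly overlapped, so these neighbours in the order did not differ beyond their spread. Malat1 and Neat1 together made up 0.00636% of counts in GMP and 0.0361% and 0.0376% at 0 h, and reached 0.375% and 0.560% at 72 h.

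**Figure D1:**
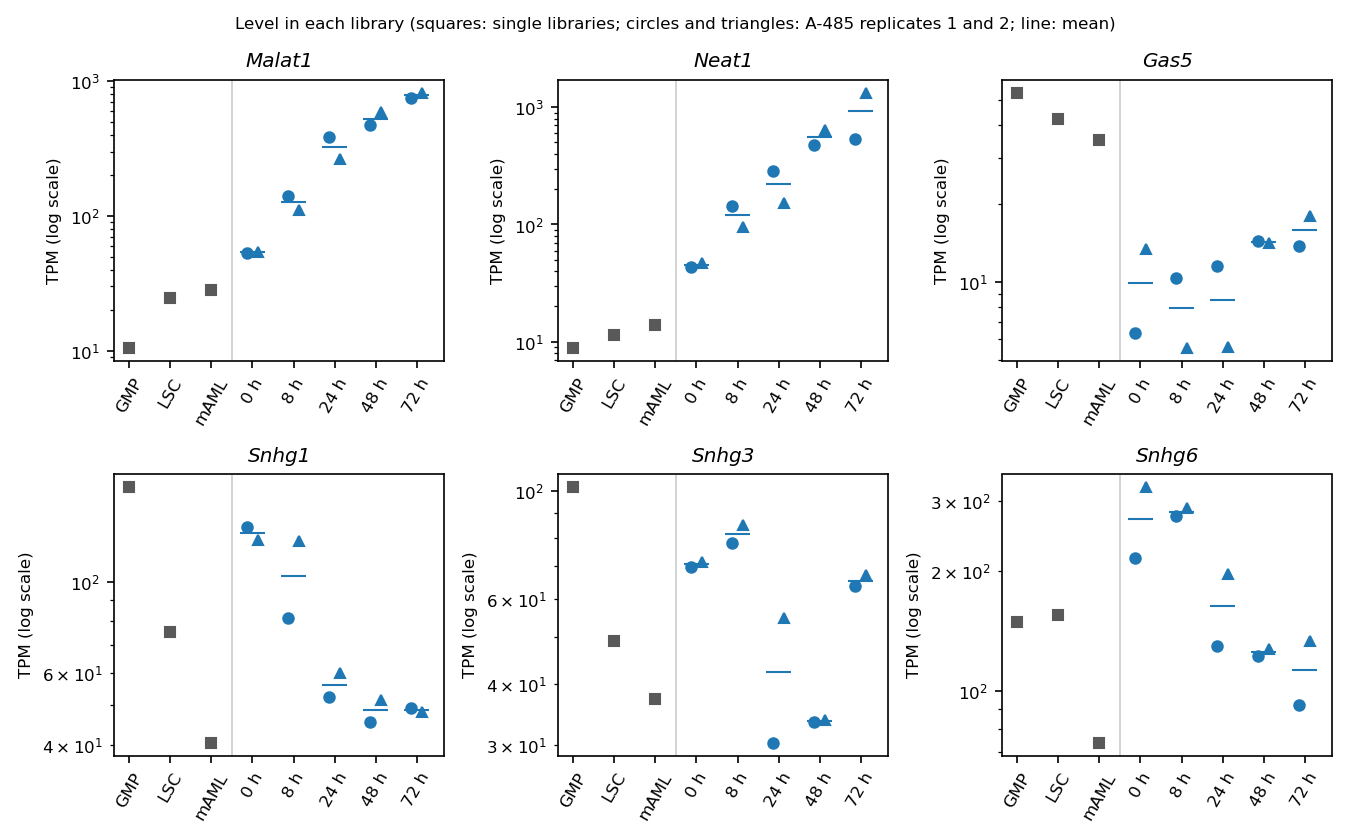
Level of each gene in TPM, on log axes, in the 3 single libraries (squares) and in replicate 1 (circles) and replicate 2 (triangles) of each time in A-485, with the mean of a time as a line. Malat1 climbs at each time from 53.3 and 54.4 TPM at 0 h to 745 and 819 at 72 h, while Snhg1 is at 126 or more at 0 h and below 52 at 48 and 72 h.

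The 4 hosts did not follow the order of Malat1 and Neat1, and 3 of them (Gas5, Snhg1 and Snhg3) were highest in GMP. The level of Gas5 was 53.5 TPM (GMP), 42.5 (LSC) or 35.2 (mAML), and between 5.54 and 17.8 TPM in all 10 libraries of the time course. Untreated LSC at 0 h had 6.34 and 13.4 TPM, against 42.5 in the single LSC library, so condition and set cannot be told apart here either. The Gas5 row rests on a single transcript model of 2554 nt, whose GENCODE counterpart has the biotype retained intron, and how reads of spliced Gas5 were counted is not given in the sources used here. By the RefSeq table the gene also overlaps Zbtb37, whose reads cannot be told apart from its own where the strand was not used. Snhg1 was highest in GMP at 169.5 TPM, then 136 and 127 at 0 h, 75.3 in LSC and 40.5 in mAML. Its levels at 48 h (45.6 and 51.6) and 72 h (49.2 and 48.1) overlapped.

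Snhg3 was highest in GMP at 102 TPM and lowest at 48 h, at 33.4 and 33.7. It was at 69.8 and 71.4 TPM at 0 h, 78 and 84.8 at 8 h, 30.3 and 54.6 at 24 h, and 63.7 and 67.0 at 72 h, so both 72 h libraries were above both 48 h libraries. The single LSC (49.1) and mAML (37.3) libraries lay inside the range of the 24 h pair. Snhg6 was at 215 and 324 TPM at 0 h and 275 and 288 at 8 h, which overlapped, and then at 130 and 196 at 24 h, 122 and 127 at 48 h, and 91.7 and 133.5 at 72 h. Its single libraries had 148 TPM in GMP, 154 in LSC and 73.9 in mAML. For these short hosts (407 to 476 nt) the length left to reads after the fragment size is taken off differed between libraries. For Snhg6 it was 123 to 160 nt in the time course and 239 to 258 nt in the single libraries, and the part of this in the order was not tested. The order of conditions for Snhg1, Snhg3 and Snhg6 was not the same by CPM, and that of Gas5 differed with TMM scaling over the 13 libraries.

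Among the single libraries, Malat1 was the member with the largest difference between LSC and GMP. By TMM-scaled CPM it was at 42.7 in GMP, 118 in LSC and 144 in mAML, a log2 ratio of 1.46 for LSC over GMP (95% exact binomial interval 1.37 to 1.56, counting error only). Neat1 was at 16.3, 24.6 and 32.4 CPM, log2 ratios of 0.59 for LSC over GMP and 0.99 for mAML over GMP. The hosts were level or lower in the leukemia cells, apart from Snhg6 in LSC. Snhg1 went from 33.1 CPM in GMP to 16.3 in LSC and 9.56 in mAML, and Snhg3 from 17.5 to 9.31 and 7.71. Snhg6 was at 22.9, 26 and 13.6 CPM, and Gas5 at 76.9, 71.4 and 62.9. At least 2-fold apart between LSC and GMP were Malat1 (higher) and Snhg1 (lower), beside 13.2% of 11362 genes higher and 12.4% lower. By library size (-1.01) and by log2(TPM + 1) (-1.03) Snhg3 was also past that line, against -0.90 with TMM. Between mAML and GMP these were Malat1 (log2 1.76), beside 22.2% of 11745 genes, and Snhg1 (-1.78) and Snhg3 (-1.17), beside 15.1%. Between mAML and LSC no member was 2-fold apart, beside 16.6% higher and 8.44% lower, although by library size Snhg6 passed that line (-1.03).

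In A-485, both nuclear RNAs were higher and Snhg1, Snhg3 and Snhg6 lower from 24 h on, on the TMM scale and in both libraries of each time against both of 0 h. Malat1 was at 321 and 328 TMM-scaled CPM at 0 h, 631 and 482 at 8 h, 1604 and 1133 at 24 h, 1757 and 2229 at 48 h, and 2666 and 3063 at 72 h. Against 0 h its log2 change was 0.78 ± 0.20 (approximate SE) at 8 h, 2.08 ± 0.21 at 24 h, 2.62 ± 0.21 at 48 h and 3.14 ± 0.21 at 72 h, the last an 8.83-fold difference. All 8 treated libraries were above both 0 h libraries.

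Neat1 was at 115 and 125 CPM at 0 h, 283 and 181 at 8 h, 521 and 285 at 24 h, 781 and 1075 at 48 h, and 839 and 2175 at 72 h. Its log2 changes against 0 h were 0.95 ± 0.45, 1.75 ± 0.46, 2.95 ± 0.47 and 3.65 ± 0.49 at the 4 times, with an SE more than 2 times that of Malat1 at each time. The 72 h value rested in good part on 1 library: it was 2.81 without replicate 2 of 72 h and 4.18 without replicate 1.

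Snhg1 was at 25.5 and 23.7 CPM at 0 h, 12.1 and 16.7 at 8 h, 7.24 and 7.71 at 24 h, 4.88 and 6.24 at 48 h, and 5.76 and 6.10 at 72 h. Against 0 h that was -0.77 ± 0.24, -1.71 ± 0.24, -2.14 ± 0.25 and -2.05 ± 0.25 on the log2 scale. It was lower than at 0 h in all 8 treated libraries, and the 48 h and 72 h pairs overlapped.

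Snhg6 was at 27.1 and 40.7 CPM at 0 h, 28.2 and 25.6 at 8 h, 12.4 and 16.7 at 24 h, 8.40 and 10.4 at 48 h, and 7.39 and 11.8 at 72 h. Its log2 changes were -0.33 ± 0.28, -1.22 ± 0.29, -1.84 ± 0.30 and -1.81 ± 0.30. The 8 h pair overlapped the 0 h pair, and the later times did not.

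Snhg3 was at 10.6 and 10.9 CPM at 0 h, 9.55 and 9.18 at 8 h, 3.46 and 5.70 at 24 h, 2.84 and 3.34 at 48 h, and 6.14 and 7.06 at 72 h. The log2 changes were -0.20 ± 0.31, -1.23 ± 0.32, -1.79 ± 0.33 and -0.70 ± 0.31. Unlike Snhg1 and Snhg6, whose 48 h and 72 h pairs overlapped, both Snhg3 libraries of 72 h lay above both of 48 h, a log2 difference of 1.09 ± 0.33 that was not tested. Snhg3 rested on few counts, 21 and 23 at 48 h and 49 and 59 at 72 h.

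Gas5 was the member with no steady course. It was at 13 and 27.4 CPM at 0 h, 15.9 and 8.17 at 8 h, 16.2 and 8.07 at 24 h, 18.2 and 18.3 at 48 h, and 16.8 and 22.8 at 72 h. On this scale every treated pair overlapped the 0 h pair, whose own libraries were 1.08 apart in log2. By TPM the pairs of 48 h (14.3 and 14.1) and 72 h (13.7 and 17.8) lay above that of 0 h (6.34 and 13.4). The changes against 0 h were -0.75 ± 0.46, -0.73 ± 0.46, -0.15 ± 0.46 and -0.02 ± 0.45.

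Counted over the 6 genes, 2 lay above both 0 h libraries at 72 h (39.1% of 11119 genes did) and 3 below (41.8% did). The counts were also 2 and 3 at 24 h (36.6% and 40.2%) and at 48 h (39.7% and 43.5%). At 8 h 2 lay above (36.7%) and 2 below, Snhg1 and Snhg3 (36.4%). Nothing is read from these counts, since values at 0 h and 72 h were in view when the genes were chosen.

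**Figure D2:**
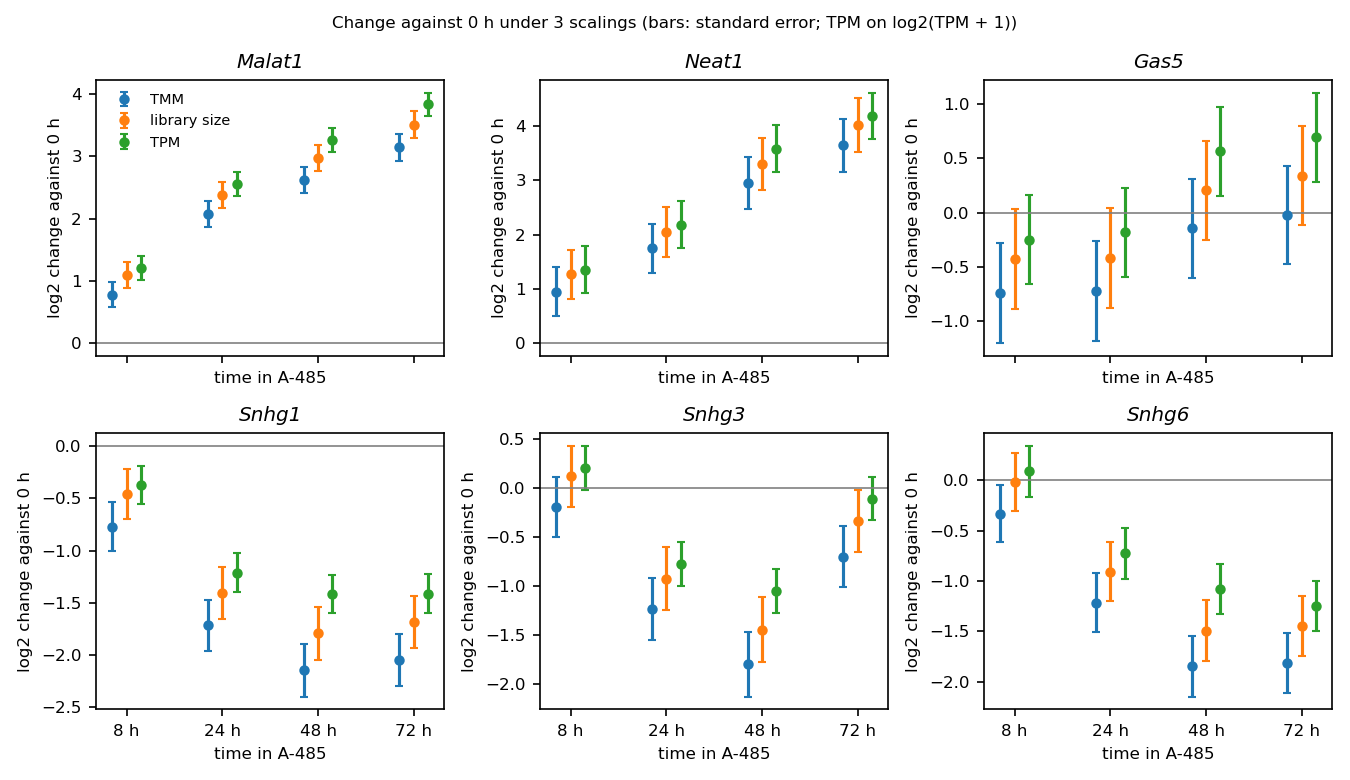
Log2 change against 0 h for each gene at 8, 24, 48 and 72 h of A-485 under TMM, library size and TPM scaling, as points with standard errors. Malat1 and Neat1 are above 0 and Snhg1 below 0 at all 4 times under the 3 scalings, while Gas5, Snhg3 and Snhg6 cross 0 at some times.

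Part of these values depended on the scaling. TMM factors were 0.830 and 0.832 at 0 h and 1.03 to 1.07 later, and scaling by library size alone moved the median of all genes by 0.31 to 0.37 on the log2 scale against 0 h. On log2(TPM + 1) it moved by 0.41 to 0.66. The number of genes called at 72 h was 2876 higher and 3272 lower with TMM, 4616 and 2228 by library size, and 6046 and 1543 by TPM. At 72 h Malat1 was 3.51 by library size and 3.83 by TPM, and Neat1 4.02 and 4.19. Snhg1 at 72 h was -1.68 and -1.41, and Snhg6 -1.45 and -1.25. Snhg3 at 8 h changed sign, to 0.12 by library size and 0.20 by TPM, and Snhg6 at 8 h went to -0.02 and 0.09. Gas5 at 72 h went to 0.34 and 0.70, each above the TMM value by about the shift of all genes.

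Transcript length also moved with time. The mean length per read was 3115 to 3128 nt in the 0 h libraries and reached 3670 to 3786 nt by 72 h, and the 112 genes under 500 nt had a median log2 change of -0.93 at 72 h, against 0.54 for the 391 genes over 8000 nt. Snhg1, Snhg3 and Snhg6 are in the class under 500 nt, and Malat1 is modelled at 6982 nt, in a class (4000 to 8000 nt) with a median of 0.25. With the trend on length taken off, the 72 h changes were 2.82 for Malat1, 3.44 for Neat1, -1.22 for Snhg1, -0.93 for Snhg6 and 0.14 for Snhg3.

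The steps among 8, 24 and 48 h were tested with edgeR's quasi-likelihood test and Benjamini-Hochberg adjustment over 11119 genes (adjusted p under 0.05). That the choice of the members used only 0 h and 72 h was assumed. These steps lie inside the same time course, so a change in the direction known from 0 h to 72 h is partly built in. The p-values are therefore no independent support for the course of the members. From 8 h to 48 h, Malat1 and Neat1 rose and Snhg1, Snhg3 and Snhg6 fell. These were 2 members higher, beside 16.6% of all genes, and 3 lower, beside 20.5%. Malat1 rose by 1.84 ± 0.20 (adjusted p = 0.000303) and Neat1 by 2.0 ± 0.45 (adjusted p = 0.00952) on the log2 scale. Neat1 did not pass without replicate 2 of 8 h (1.71, adjusted p = 0.0574) or without replicate 2 of 48 h (1.75, adjusted p = 0.0536).

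Snhg1 fell by 1.37 ± 0.25 on the log2 scale (adjusted p = 0.00359), Snhg6 by 1.51 ± 0.30 (adjusted p = 0.00515) and Snhg3 by 1.60 ± 0.33 (adjusted p = 0.00609). Both 48 h libraries were below both 8 h libraries for each of the 3 (36.6% of genes), and above for Malat1 and Neat1 (34.6%). None of these 3 calls held with the trend on transcript length taken off, where the changes were -0.65 for Snhg1 (adjusted p = 0.0834), -0.76 for Snhg6 (adjusted p = 0.0655) and -0.82 for Snhg3 (adjusted p = 0.0598). Genes under 500 nt had a median change of -0.81 from 8 h to 48 h. Snhg3 also missed the threshold without replicate 1 of 48 h (adjusted p = 0.0523). Gas5 was 0.60 ± 0.46 higher, with an adjusted p of 0.341.

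From 8 h to 24 h, Malat1 rose by 1.30 ± 0.20 on the log2 scale (adjusted p = 0.00337), the 1 member called higher, beside 9.73% of genes. Snhg1 fell by 0.94 ± 0.24 (adjusted p = 0.0259) and Snhg3 by 1.03 ± 0.32 (adjusted p = 0.0474), the 2 called lower, beside 12%. Both lower calls were fragile. The Snhg1 call was lost in 5 of 10 fits that left out 1 library, with replicate 2 of 8 h moving it most (-0.69, adjusted p = 0.153), and the Snhg3 call in 9 of 10, most of all without replicate 1 of 24 h (-0.72, adjusted p = 0.208). With the length trend taken off they were -0.59 (adjusted p = 0.144) and -0.70 (adjusted p = 0.126). Snhg6, at -0.89 ± 0.29 (adjusted p = 0.0609), Neat1, at 0.80 ± 0.44 (0.236), and Gas5, at 0.02 ± 0.46 (0.986), did not pass.

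From 24 h to 48 h no member passed edgeR's test, where 0.0270% of genes were called higher and 2.10% lower. At an unadjusted p under 0.05 there were 2 higher and 0 lower, and DESeq2 also called 0. Malat1 was 0.54 ± 0.20 higher (adjusted p = 0.290) and Neat1 1.20 ± 0.44 higher (adjusted p = 0.298), with both 48 h libraries above both 24 h libraries in each (20.8% of genes, and 24.3% below). Snhg1, Snhg3 and Snhg6 were -0.43, -0.56 and -0.63, with adjusted p of 0.522, 0.522 and 0.428, and Gas5 was 0.58 with an adjusted p of 0.635.

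The libraries of a time were not alike in these genes. In replicate 2 of 8 h, replicate 2 of 24 h and replicate 1 of 72 h, Wnt2 was at 67.1, 69.2 and 20.9 TMM-scaled CPM, against 0.806, 0.540 and 1.08 in the other library of each time. In each of these 3 libraries Malat1, Neat1 and Gas5 were lower than in the partner. Replicate 2 over replicate 1 was -0.39 for Malat1, -0.64 for Neat1 and -0.96 for Gas5 at 8 h on the log2 scale, and -0.50, -0.87 and -1.01 at 24 h. At 72 h, where replicate 1 has the high Wnt2, it was 0.20, 1.37 and 0.45. For Neat1 at 72 h the counting interval was 1.33 to 1.41. At 48 h, where both libraries were low in Wnt2, Malat1 and Neat1 still differed by 0.34 and 0.46. For Gas5 the intervals at 8, 24 and 72 h left out 0. So did that at 0 h, where the ratio was 1.08 (0.73 to 1.44) and Wnt2 was at 3.58 and 2.65 CPM. Among Snhg1, Snhg3 and Snhg6, intervals that left out 0 were those of Snhg1 at 8 h (0.46), Snhg3 at 24 h (0.72) and Snhg6 at 0, 24 and 72 h (0.59, 0.43 and 0.68).

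Leaving out the 3 libraries, an alternative chosen after seeing the data, left 1 library each at 8, 24 and 72 h, so the spread came from the 0 h and 48 h pairs and the lone libraries are assumed to vary like those. In that fit Neat1 was 0.88 higher from 8 h to 24 h and 0.83 higher from 24 h to 48 h on the log2 scale. From 8 h to 24 h the change was -1.18 for Snhg6 and -0.74 for Snhg1. No call is given, since single libraries hold no spread of their own. The part of what sets these libraries apart in the changes of the 6 genes was not tested otherwise.

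**Figure D3:**
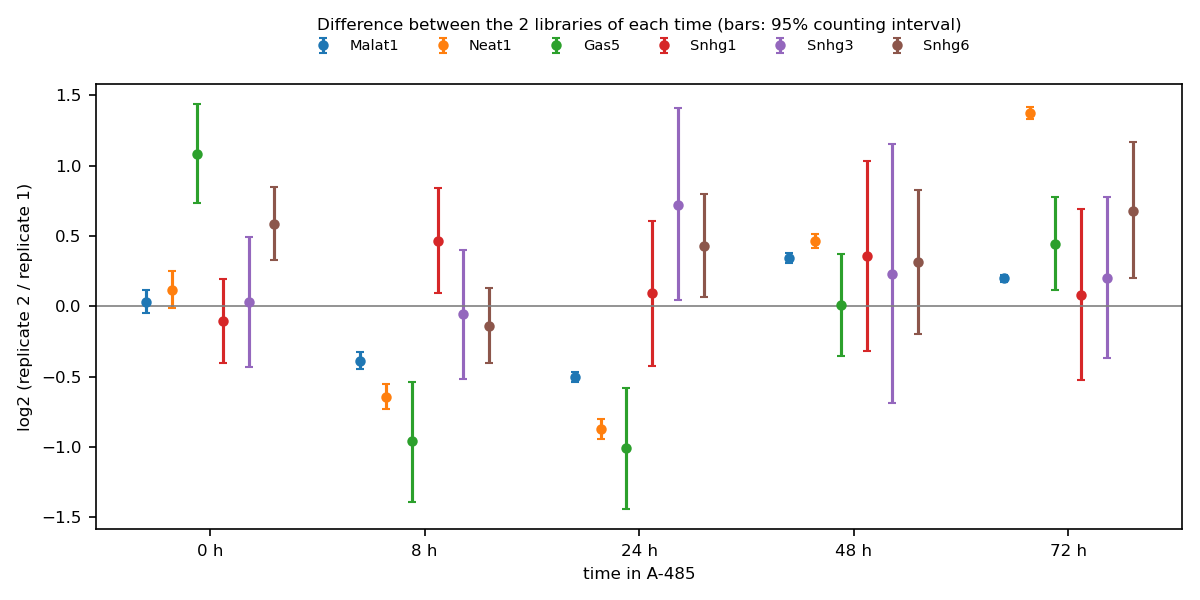
Log2 ratio of replicate 2 over replicate 1 at each time for the 6 genes (TMM-scaled CPM), with 95% counting intervals. Malat1, Neat1 and Gas5 lie below 0 together at 8 h and 24 h and above 0 at 72 h, where Neat1 reaches 1.37.

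The host RNAs were read beside other genes of the same pathways. These lists too were chosen with earlier results of these data known, so their calls and p-values are no independent support. Most genes named from them were picked by the smallest adjusted p in these data. Comparisons with 0 h share the same control libraries, so the times are given side by side. Other snoRNA host genes were mostly lower in A-485: of 41 tested, 0 rose and 25 fell at 8 h, beside 17.9% and 21.0% of all genes, and 2 rose and 30 fell at 72 h, beside 25.9% and 29.4%. Their median log2 change was -0.55 at 8 h and -1.23 at 72 h, against 0.01 and -0.02 over all genes. At 8 h the count at an unadjusted p under 0.05 was 0 higher and 27 lower, and DESeq2 called 0 higher and 25 lower. The 8 h counts of these hosts depended on scaling, with 3 higher and 13 lower by library size and 5 and 12 by TPM. Their 72 h counts were 7 and 27 by library size and 7 and 23 by TPM. Calls over all genes moved too. At 8 h all genes gave 4078 higher and 1520 lower by library size, and 4844 and 1287 by TPM. At 72 h they gave 4616 and 2228 by library size, and 6046 and 1543 by TPM. The counts of every list under these scalings stand beside those of all genes. Taking off the length trend left 22 lower at 8 h and 27 at 72 h. Without replicate 2 of 0 h, 15 were lower at 8 h. The number higher at 72 h was 1 without either 0 h library and 4 without either 24 h library.

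Gnl3, a nucleolar GTP-binding protein gene, fell from 76.8 ± 4.2 CPM at 0 h (SD, n = 2) to 18.9 ± 1.1 at 8 h and 16.6 ± 4.7 at 72 h, a log2 change of -2.02 ± 0.20 at 8 h (adjusted p = 0.000176, edgeR). Ncl, which encodes the nucleolar protein nucleolin, also fell (-0.81 at 8 h and -1.68 at 72 h), as did Rpsa, a gene of the small ribosomal subunit (-0.77 and -2.14). Eif4a2, a translation initiation helicase gene, and Prrc2a were the 2 that rose at 72 h, by 0.89 and 0.42, and were named after their values were seen. Eif4a2 had been lower at 8 h (-0.53, adjusted p = 0.0187). Of 7 further Snhg genes tested, Snhg4 (-2.94), Snhg5 (-1.20) and Snhg7 (-2.16) fell at 72 h, and Snhg8, Snhg12, Snhg17 and Snhg20 did not pass. Snhg20 was 1.07 higher with an adjusted p of 0.0540.

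RNAs of genes for snoRNA-binding proteins were mostly lower as well, in a list that shares Nop56 and Dkc1 with the list of other hosts. Of 20 genes for snoRNP proteins and their assembly factors, 0 rose and 12 fell at 8 h (17.9% and 21.0% of all genes), and 1 rose and 18 fell at 72 h (25.9% and 29.4%), with medians of -0.65 and -1.08. At 8 h an unadjusted p under 0.05 gave 0 higher and 13 lower, and DESeq2 0 and 11. Counts lower were 7 at 8 h by library size and by TPM, where 2 were higher, and 12 and 8 at 72 h. Without replicate 1 of 0 h, 7 were lower at 8 h. Fbl, the methyltransferase of box C/D snoRNPs, fell from 176 ± 5.3 CPM (SD, n = 2) to 88.1 ± 5.8 at 8 h and 44.3 ± 3.8 at 72 h. Nop56, its core partner (-0.83 at 8 h and -1.57 at 72 h), Nhp2 of the box H/ACA particle (-1.08 and -2.23) and the assembly ATPase gene Ruvbl2 (-1.51 and -1.96) fell too. Tgs1, an RNA cap methyltransferase gene, was the 1 that rose at 72 h, by 0.50, a call lost without replicate 2 of 72 h (0 higher).

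Ribosomal protein genes, 9 of which are also in the host list, fell in 64 of 77 tested at 8 h and 74 of 77 at 72 h, beside 21.0% and 29.4% of all genes, with medians of -0.56 and -1.21 and none higher by edgeR, by DESeq2 or at an unadjusted p under 0.05. By library size the 8 h count was 15, and by TPM 12, with 1 higher. Only 3 snoRNAs of the members were among the genes counted. Snord47 of Gas5 (65 nt) and Snord87 of Snhg6 (74 nt) had 0 counts in the 13 libraries. Snord22 of Snhg1 (126 nt) had 2, 12 and 4 counts in GMP, LSC and mAML and 0 in the time course. There the fragment size left 123 to 160 nt of the 407 nt of Snhg6, so typical fragments were longer than these snoRNAs. Their low counts do not measure snoRNA levels.

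**Figure D4:**
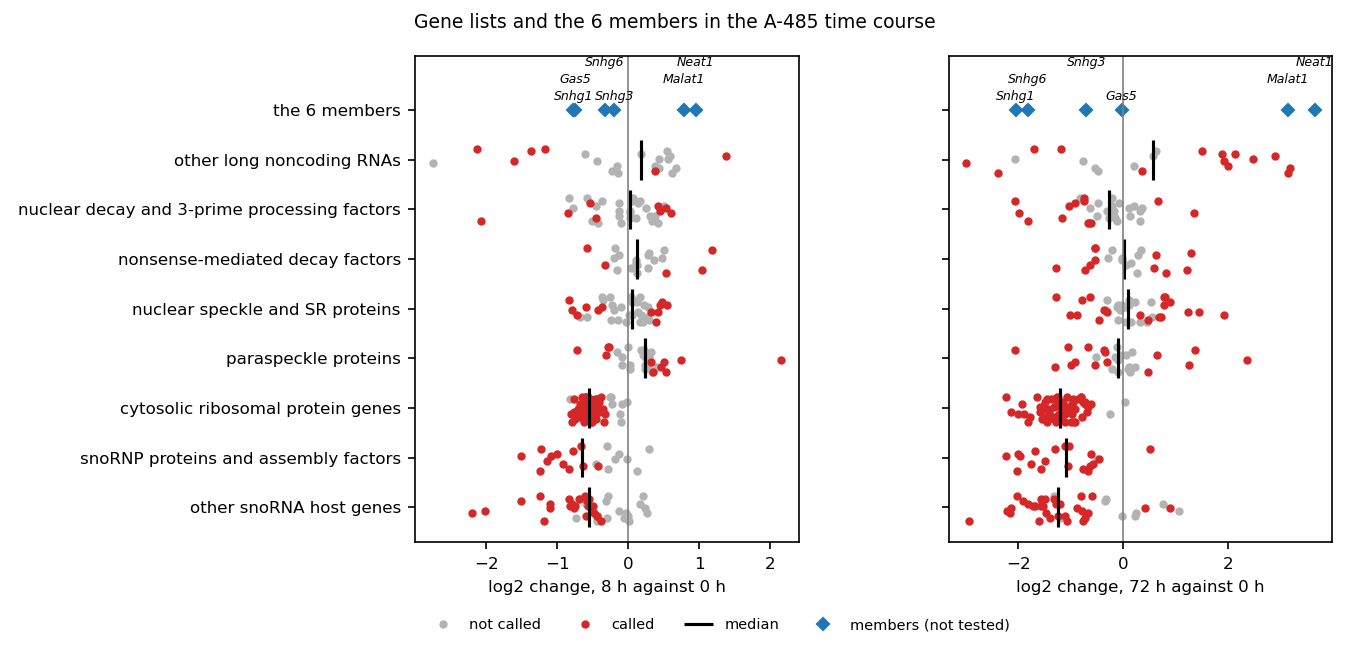
Log2 change at 8 h (left) and 72 h (right) against 0 h on the TMM scale for each gene of 8 lists, called genes in red and the list median as a black bar, with the 6 members as blue diamonds in the top row (not tested). At 72 h Snhg1, Snhg3, Snhg6 and Gas5 all lie in the wide range of the other snoRNA host genes (-2.94 to 1.07), whose median is -1.23. At 72 h Malat1 and Neat1, chosen with their 0 h and 72 h values known, lie beyond every paraspeckle and speckle protein gene. At 8 h Rbm4b (2.15) lies beyond both.

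Genes for paraspeckle and speckle proteins, the partners of Neat1 and Malat1, were called in both directions. Of 29 paraspeckle protein genes, 7 rose and 4 fell at 8 h, beside 17.9% and 21.0% of all genes, and 5 rose and 10 fell at 72 h, beside 25.9% and 29.4%, with medians of 0.24 and -0.10. The 72 h split was 10 and 6 by library size and 20 and 3 by TPM, beside the counts of all genes given above. Rbm4b, an RNA-binding protein gene, rose from 5.68 ± 1.93 CPM (SD, n = 2) to 25.4 ± 1.9 at 8 h and 29.2 ± 1.9 at 72 h, whereas Hnrnpa1, a splicing regulator gene, fell at both times (-0.71 and -2.07). Sfpq, a core paraspeckle protein gene, was 0.50 higher at 8 h (adjusted p = 0.00594) and 0.31 lower at 72 h (adjusted p = 0.0297), the latter less than the 0.37 that library size scaling moved all genes.

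Of 38 nuclear speckle and SR protein genes, 6 rose and 6 fell at 8 h, beside 17.9% and 21.0% of all genes. At 72 h 11 rose and 8 fell, near the 25.9% and 29.4% of all genes. The 72 h split was 25 and 3 by library size and 32 and 2 by TPM. Over all genes it was 4616 and 2228 by library size and 6046 and 1543 by TPM. Clk1, a kinase of SR proteins, rose by 1.92 ± 0.27 at 72 h (adjusted p = 0.000484), with 84.2 ± 5.9 CPM at 0 h and 320 ± 96 at 72 h (SD, n = 2). Thoc2, of the RNA export complex, rose by 1.25, and Srsf2, a splicing factor gene, fell by 1.01.

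Of 20 nonsense-mediated decay factors, 5 rose and 6 fell at 72 h, near the 25.9% and 29.4% of all genes, with 3 and 2 at 8 h (17.9% and 21.0%). The split at 72 h was 10 and 2 by library size and 12 and 1 by TPM, beside the counts of all genes given above. Xrn1, the cytoplasmic 5′ exonuclease gene, rose from 26.9 ± 0.3 CPM to 55.6 ± 9.4 at 8 h and 63.0 ± 11.8 at 72 h (SD, n = 2), and Smg1, the kinase gene of the pathway, rose by 1.29 at 72 h. Of 33 genes for nuclear decay and 3′ end processing, 4 rose and 4 fell at 8 h, and 2 rose and 11 fell at 72 h, beside the same shares of all genes (6 and 5 by library size, 15 and 4 by TPM). The exosome subunit genes Exosc5 (-1.82) and Exosc8 (-1.99) fell at 72 h, and Zfc3h1, a nuclear exosome adaptor gene, rose by 1.36. Of 14 housekeeping genes, 1 rose and 8 fell at 72 h, with a median of -0.75 (3 and 7 by library size, 6 and 6 by TPM).

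Of 21 other long noncoding RNAs tested, 2 rose and 4 fell at 8 h, beside 17.9% and 21.0% of all genes, and 10 rose and 4 fell at 72 h, beside 25.9% and 29.4%, with medians of 0.17 and 0.58. By library size the 72 h split was 13 and 2 and by TPM 12 and 2, beside the counts of all genes given above. Peg13, an imprinted RNA, rose from 60.8 ± 8.3 CPM (SD, n = 2) to 242 ± 11 at 72 h, and Mir22hg and Dleu2, which host microRNAs, rose by 2.90 and 2.47. Pvt1, the neighbour of Myc, fell at both times (-2.13 and -1.19). The largest changes in this list, 3.17 ± 0.50 for Firre and 3.14 ± 1.1 for Mir17hg at 72 h, chosen after their values were seen, were near that of Malat1, and both RNAs were below 11 CPM at 0 h.

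The genes next to the members did not follow them in all cases. Malat1 and Neat1 are neighbours on chromosome 19 by the RefSeq order. Frmd8, beside Neat1, rose by 0.37 ± 0.12 at 72 h, less than the 0.66 that TPM moved all genes, and Slc25a45, beyond Frmd8, by 0.81. Slc3a2, an amino acid transporter subunit gene beside Snhg1, fell at both times (-1.28 and -1.54), as did Wdr74 on the other side (-0.79 and -1.06). Rcc1, beside Snhg3, was not called at 8 h (-0.31, adjusted p = 0.112) and fell at 72 h (-1.91), while Phactr4 on the other side rose by 0.67. Zbtb37, which overlaps Gas5, rose by 1.90 at 72 h. Sgk3, near Snhg6, rose by 0.73.

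Over the 10 time course libraries, which share their times and depth, Pearson's r of log2 TMM-scaled CPM is given as a description. It was 0.96 between Malat1 and Neat1, 0.93 between Snhg1 and Snhg6, and 0.82 and 0.80 between Snhg3 and those hosts. Malat1 and Snhg1 ran opposite, at -0.96. Gas5 was between -0.12 and 0.36 with each of the others. Among all tested genes the closest to Malat1 were Narfl (0.986), Nfix and Ulk3, and to Neat1 Dvl1 (0.988), Leng8 and Narfl, so Narfl was in both sets. The closest were Ces2g (0.992), Mmd and Tnfrsf9 to Snhg1, Mpp6 (0.985), Nol7 and Atp5j to Snhg6, Tasp1 (0.975), Zranb2 and Exosc6 to Snhg3, and Map3k12 (0.966), Rabggta and Smpdl3a to Gas5.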

How the data were processed

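RNA was sequenced in 13 libraries. The submitters' processing notes list STAR, RSEM and the mouse build mm9, with versions not given in the sources used here. Deposited files hold, per the file headers, the expected count of each gene (reads as RSEM estimated them, not scaled to depth) and its TPM, for 24328 genes. How RNA was selected and whether strand was kept are not given there. The reference tables are of GRCm38, so the only coordinates printed are those of RefSeq promoter windows, and RefSeq served otherwise for gene order.

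Expected counts were rounded. All 10 time course libraries entered 1 fit with edgeR 4.0.16 in R 4.3.3 (TMM scaling, filterByExpr, time as a factor, quasi-likelihood test). The filter kept 11119 genes, among them the 6 members, and calls were made where the Benjamini-Hochberg value was under 0.05. SE were approximated from each change and its F statistic. The common biological coefficient of variation was 0.186. Ratios among the 3 single libraries used TMM scaling over them and a prior count of 5, with 95% exact binomial intervals, and shares over all genes used those at 1 CPM or more in either library. Intervals cover counting error only. The fit was tested on simulated data.

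Same-numbered libraries were not treated as pairs, since their deviations correlated between -0.408 and 0.644 over 10 pairs of times and 3 were above 0.1. The extremes were 0.644 between 8 h and 24 h, -0.402 between 8 h and 72 h and -0.408 between 24 h and 72 h. At these 3 times 1 library was high in Wnt2, replicate 2 at 8 h and 24 h and replicate 1 at 72 h. The main fit has no term for this shared deviation, also in the step from 8 h to 24 h. Alternatives were library size scaling, limma 3.58.1 on log2(TPM + 1) or log2(TPM + 0.1) for genes with a mean TPM of at least 1, no filter, DESeq2 1.42.0, the replicate block, removal of a trend on transcript length, and each library left out. The members and the gene lists were chosen with earlier results of these data known. From each list, up to 4 genes called with the smallest adjusted p at 8 h and 4 at 72 h, with libraries that did not overlap, could be named, and other named genes are marked as such. The 3 genes closest in pattern and 2 neighbours on either side were taken for each member, and some results are not reported here.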

Additional observations from a re-analysis of the deposited data

How the results depend on the processing

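Malat1 at 72 h against 0 h was 3.51 by library size, 3.83 and 3.86 by TPM with a pseudocount of 1 and 0.1, and 2.82 with the length trend removed, and 3.04 to 3.24 with 1 library left out. Snhg3 at 8 h reversed to 0.12, 0.20, 0.21 and 0.09 under the same 4 settings, and at 72 h to 0.14 with the trend removed; the cause was not tested. With the trend removed, Snhg1 (-0.59) and Snhg3 (-0.70) from 8 h to 24 h and Snhg1 (-0.65), Snhg3 (-0.82) and Snhg6 (-0.76) from 8 h to 48 h were not called, so 0 members were called lower at either step. Snhg3 from 8 h to 24 h was also not called without the filter (-1.04) or by DESeq2 (-1.03). Snhg6 from 8 h to 24 h was called without the filter (-0.89), by DESeq2 (-0.88) and by limma on TPM with a pseudocount of 1 (-0.82, adjusted p = 0.0479). With a pseudocount of 0.1 it was -0.82 and not called (adjusted p = 0.0508, limma). It was also called with the replicate block (-0.92, adjusted p = 0.0288, edgeR), which is given although the numbers did not pair the libraries over all times. Without the 3 libraries high in Wnt2, chosen after seeing the data, 8, 24 and 72 h have 1 library each, assumed to vary like the 0 h and 48 h pairs. Then Neat1 was 0.88 from 8 h to 24 h and 0.83 from 24 h to 48 h. Snhg6 was -1.18 and Snhg1 -0.74 from 8 h to 24 h, with no call given. Leaving out 1 library gave 1.71 to 2.35 for Neat1 and -1.71 to -1.49 for Snhg3 from 8 h to 48 h, and -1.16 to -0.69 for Snhg1 and -1.43 to -0.72 for Snhg3 from 8 h to 24 h, with 0 to 1 members lower from 8 h to 24 h, 1 to 2 higher and 2 to 3 lower from 8 h to 48 h. Other host genes higher at 8 h numbered 3 by library size, 5 and 5 by TPM and 1 without the Wnt2 libraries, and lower at 8 h 13, 12 and 11. Those higher at 72 h were 7, 7, 7 and 4. With 1 library left out they were 0 to 1 higher and 15 to 25 lower at 8 h, and 1 to 4 higher and 28 to 31 lower at 72 h. For snoRNP genes at 8 h, 2, 2 and 2 were higher and 7, 7 and 7 lower by library size and both TPM settings, and 8 and 8 were lower at 72 h by TPM. Leaving out 1 library gave 7 to 12 lower at 8 h, and 0 to 1 higher and 14 to 18 lower at 72 h. Between mAML and LSC, 1 and 1 member passed 2-fold by library size and by TPM. Few counts limit the short hosts: Snhg3 had 21 and 23 at 48 h.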
